A study of Mus musculus with 8 samples.

Results

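Arg1, Retnla, Chil3, Ear2, Il4ra and Pdcd1lg2 are genes widely used in the mouse to describe the alternative activation of macrophages, and they were taken by symbol from the count matrices, as 6 of the 30406 genes that all 4 matrices list. They were described in CD45+/CD11b+ myeloid cells of the sciatic nerve across 5 groups of C57BL/6JolaHsd mice, for the summed RNA of each sample and for which of the genes occurred in the same single cells. At 1 week the groups were sham (the nerve exposed and left untouched), partial sciatic nerve ligation (PSNL, in which part of the nerve stays tightly tied) and crush (a squeeze with forceps, after which axons can regrow), each with 1 female (F) and 1 male (M) sample. At 15 weeks they were PSNL (F1, F2, M1 and M2) and crush (F1, F2 and M1). Each sample is a hashtag, an antibody with a barcode that marks the cells of 1 sample in a shared library, and the sources used here do not say whether a hashtag stood for 1 mouse or for several. The p-values therefore measure the spread between hashtag samples.

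Alternative activation is the state that macrophages enter when interleukin 4 or interleukin 13 binds a receptor that contains the chain encoded by Il4ra, after which JAK kinases activate the transcription factor STAT6. Arg1 encodes arginase 1, which splits arginine into ornithine and urea and so feeds the synthesis of polyamines and proline. Retnla encodes the secreted protein RELMα, Chil3 the chitinase-like lectin Ym1, Ear2 an eosinophil-associated ribonuclease, and Pdcd1lg2 the ligand PD-L2 of the inhibitory receptor PD-1. These genes are often read as 1 programme, although Chil3 is also known in Ly6C-high monocytes, Ear2 in monocytes and eosinophils, and Arg1 can be induced without STAT6.

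The places of the genes in GRCm38, from GENCODE M21, are chr10:24915221-24927484 on the minus strand for Arg1, chr16:48842551-48844461 on the plus strand for Retnla, chr3:106147554-106167564 on the minus strand for Chil3, chr14:44102654-44103534 on the plus strand for Ear2, chr7:125552120-125579474 on the plus strand for Il4ra and chr19:29410919-29471161 on the plus strand for Pdcd1lg2. All 6 are annotated as protein coding. Ear2 and Chil3 have near-identical relatives in the mouse genome, so reads shared between copies can be lost or split. Promoters of 300 bases, from 250 before to 50 after the annotated start, were read from RefSeq (GRCm38.p6) for 5 of the 6 genes. The promoters of Retnla and Ear2 are shown because this pair had the largest excess over the expected number of shared cells, and they were chosen after that was seen. Capitals mark matches to TTCNNNNGAA, a STAT6 motif, and to TTGCNNAA, a C/EBP motif, with both strands searched. Distances are from the RefSeq start, which lies 58 bases downstream of the GENCODE start of Retnla and at that of Ear2. The Retnla promoter (chr16:48842359-48842658, plus strand) held TTCACAAGAA 145 bases before the start and TTGCTAAA 134 bases before it. The Ear2 promoter (chr14:44102404-44102703, plus strand) held TTGCACAA 90 bases before the start and no TTCNNNNGAA.
Retnla: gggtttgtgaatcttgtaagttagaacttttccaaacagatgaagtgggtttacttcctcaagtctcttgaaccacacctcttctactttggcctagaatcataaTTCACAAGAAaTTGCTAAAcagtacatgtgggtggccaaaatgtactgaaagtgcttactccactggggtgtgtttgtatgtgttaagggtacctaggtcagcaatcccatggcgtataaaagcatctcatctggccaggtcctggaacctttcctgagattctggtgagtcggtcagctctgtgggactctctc
Ear2: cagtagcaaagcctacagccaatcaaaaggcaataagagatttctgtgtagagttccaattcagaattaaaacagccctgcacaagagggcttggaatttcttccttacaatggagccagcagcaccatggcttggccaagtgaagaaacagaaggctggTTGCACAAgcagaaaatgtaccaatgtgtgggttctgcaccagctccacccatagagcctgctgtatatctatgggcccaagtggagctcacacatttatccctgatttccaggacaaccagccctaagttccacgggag
Among the 32851 promoters of the table, 6.95% held TTCNNNNGAA, 8.30% the related TTCNNNGAA and 10.8% TTGCNNAA. The Pdcd1lg2 promoter held TTCCTCAGAA 82 bases before the start, the Chil3 promoter held TTCTTAGAA 172 bases before it, and the Il4ra promoter held no match.

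After filtering, 6547 cells remained, from 64 in the sham female and 106 in the sham male to 1554 in crush M1 at 15 weeks, with 247765 to 15288422 UMIs (unique molecular identifiers, counted molecules) per sample. Injury model coincided with library, apart from the sham female in the PSNL library and the sham male in the crush library, and time coincided with batch. Ly6G+ cells were kept out at 1 week only. Between 26.7 and 28.9% of the 1 week barcodes carried several hashtags and were left out, against 1.79 to 5.18% at 15 weeks, and doublets within a hashtag remain. Xist lay at 767 to 1332 UMIs per 1e+06 UMIs in female samples and at no more than 1.39 in male samples, without TMM scaling. Levels given in CPM are UMIs per 1e+06 UMIs of the sample, scaled by TMM. Gm42418, which overlaps ribosomal RNA, took 7.23 to 18.4% of the UMIs at 1 week and 1.33 to 2.34% at 15 weeks. The summed level of 8 neutrophil markers was 5950 to 16896 CPM in PSNL, 1141 to 2209 CPM in crush and 560 to 3958 CPM in sham at 1 week, and 131 to 402 CPM at 15 weeks.

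At 1 week the members split by injury model. Arg1 was higher in PSNL by a fitted 235-fold than in sham and 219-fold than in crush, the first set by 4 UMIs in sham, whereas Retnla was 97.4-fold lower and Ear2 9.58-fold lower in PSNL than in crush. Chil3, Il4ra and Pdcd1lg2 did not pass the test in any comparison within 1 week. At 15 weeks PSNL and crush samples overlapped for every member and none passed the test. Tests were made with edgeR's quasi-likelihood test on summed counts, in 1 fit of all 13 samples over 11481 genes, with p-values adjusted by Benjamini and Hochberg and called under 0.05. Against sham, 2 of 6 members passed in PSNL, where 5.21% of all genes did, and 0 of 6 in crush, where 0.165% did. Between PSNL and crush, 3 of 6 passed at 1 week (12.4% of all genes) and 0 of 6 at 15 weeks (0% of all genes). Between 15 weeks and 1 week, 6 of 6 passed in PSNL (56.3% of all genes) and 1 of 6 in crush (42.5%). The change of the PSNL minus crush difference with time passed for 2 of 6 members, against 7.78% of all genes. In the comparison of crush with sham, as in that of both injuries at 15 weeks, 0 of 6 members had an unadjusted p under 0.05 and 0 of 6 were called by DESeq2. Comparisons that use the same samples are not independent of each other. In summed counts, fewer cells of a type and less RNA per cell cannot be told apart.

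**Figure D1:**
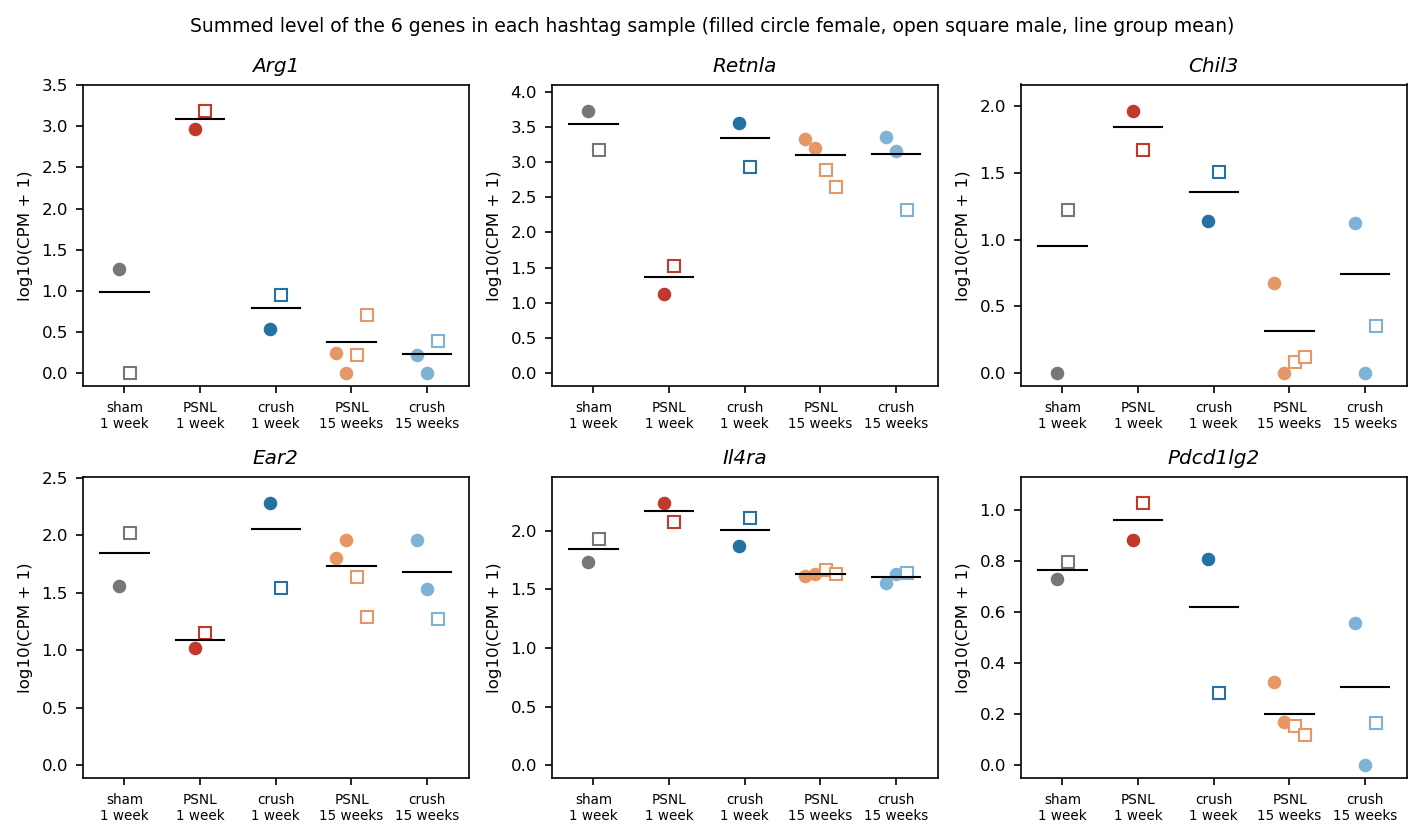
Level of each member in each of the 13 hashtag samples, as log10 of CPM plus 1 on the vertical axis, by group on the horizontal axis; filled circles are female samples, open squares male samples and lines group means. Arg1 stood at 931 and 1545 CPM in PSNL at 1 week and at no more than 17.5 CPM elsewhere, and Retnla at 12.3 and 31.9 CPM there and at 206 CPM or more elsewhere.

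Arg1 marked PSNL at 1 week. Its level was 931 CPM in PSNL F and 1545 CPM in PSNL M, against 17.5 CPM in sham F, 0 CPM in sham M, 2.46 CPM in crush F and 7.94 CPM in crush M. The PSNL samples lay far above all others, and sham and crush overlapped. The mean was 1238 ± 434 CPM in PSNL, 8.75 ± 12.4 CPM in sham and 5.20 ± 3.87 CPM in crush (SD, n = 2 each). With edgeR the log2 difference was 7.88 ± 1.01 (SE) between PSNL and sham (235-fold, adjusted p = 0.00183) and 7.78 ± 0.80 between PSNL and crush (219-fold, adjusted p = 0.000319). The value for sham rests on 4 UMIs in sham F, each in a different cell, and on 0 UMIs in sham M. The difference was 6.16 without sham M (adjusted p = 0.0219) and 4.96 with hashtags assigned by HTODemux in place of a threshold at the valley of each hashtag's counts (adjusted p = 0.0133). Against the limit of 3 UMIs that 0 allows in sham M, 5.26 CPM, the level was at least 177-fold higher in PSNL F and at least 294-fold higher in PSNL M, for counting error only. Within the PSNL library, PSNL F and PSNL M held 53.2 and 88.3 times the level of sham F. A term for the library turned the PSNL against crush difference to -1.29 (adjusted p = 1), and that term is set by the 2 sham samples alone, with their 4 and 0 UMIs.

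At 15 weeks little Arg1 was left. The level was 0.744, 0, 0.642 and 4.04 CPM in PSNL F1, F2, M1 and M2, and 0.649, 0 and 1.44 CPM in crush F1, F2 and M1, with full overlap of the injuries. PSNL fell by 9.92 ± 0.67 on the log2 scale between 1 and 15 weeks (971-fold, adjusted p = 2.89e-07). The corresponding value in crush was -2.41 ± 0.93 (adjusted p = 0.0525). That value passed in 7 of 14 alternatives, for example at -3.62 without crush M1 at 15 weeks (adjusted p = 0.0426) and at -2.90 without crush F at 1 week (adjusted p = 0.0476). The PSNL minus crush difference was larger at 1 week by 7.51 ± 1.28 (adjusted p = 0.00624), and this did not pass without crush M1 (6.27, adjusted p = 0.206).

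Retnla showed the opposite arrangement at 1 week. It stood at 5397 CPM in sham F and 1480 CPM in sham M, 3602 CPM in crush F and 861 CPM in crush M, but at 12.3 CPM in PSNL F and 31.9 CPM in PSNL M. Both PSNL samples lay below every other sample of the study, while sham and crush overlapped. The mean was 22.1 ± 13.9 CPM in PSNL, 3438 ± 2769 CPM in sham and 2232 ± 1938 CPM in crush (SD, n = 2 each). With edgeR, Retnla was lower in PSNL than in sham by a log2 difference of -7.22 ± 1.32 (150-fold, adjusted p = 0.00956) and lower than in crush by -6.61 ± 1.29 (97.4-fold, adjusted p = 0.00744). Crush against sham was -0.62 ± 1.00 (adjusted p = 0.890). Both PSNL differences missed the threshold when a PSNL sample was left out, at -6.73 and -8.10 against sham (adjusted p = 0.0734 and 0.0723, without F and M) and at -6.13 and -7.50 against crush (adjusted p = 0.0637 and 0.0621). Their direction held, and the value against sham was -6.00 without sham F (adjusted p = 0.0493). Within the PSNL library, sham F held 438 and 169 times the level of PSNL F and PSNL M. A library term gave -8.47 between PSNL and crush (adjusted p = 0.0999).

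At 15 weeks Retnla was high after both injuries. It stood at 2147, 1610, 778 and 447 CPM in PSNL F1, F2, M1 and M2 and at 2308, 1418 and 206 CPM in crush F1, F2 and M1, so the injuries overlapped (-0.07 ± 0.76, adjusted p between 0.975 and 1 for all members in this comparison). PSNL rose by 5.77 ± 1.21 on the log2 scale between the times (54.4-fold, adjusted p = 0.00140), with all 4 samples at 15 weeks above both at 1 week. In crush the difference was -0.77 (adjusted p = 0.517). The PSNL minus crush difference moved by -6.53 ± 1.43 between 15 weeks and 1 week (adjusted p = 0.0182), and it missed the threshold without crush F (-5.17, adjusted p = 0.0533), PSNL F (-6.05, adjusted p = 0.0864) or PSNL M at 1 week (-7.42, adjusted p = 0.0901).

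Ear2, at lower levels than Retnla, was likewise lowest in PSNL at 1 week, but in sham it was higher in M than in F, the reverse of Retnla. It stood at 35.0 and 103 CPM in sham F and M, 191 and 34.2 CPM in crush F and M, and 9.47 and 13.1 CPM in PSNL F and M. The PSNL samples were again the lowest of the study. At 15 weeks the levels were 62.5, 90.2, 42.8 and 18.7 CPM in PSNL F1, F2, M1 and M2 and 90.9, 33.2 and 17.9 CPM in crush F1, F2 and M1. With edgeR, Ear2 was lower in PSNL than in crush at 1 week (-3.26 ± 0.97, 9.58-fold, adjusted p = 0.0459) and rose in PSNL by 15 weeks (2.21 ± 0.89, 4.64-fold, adjusted p = 0.0487). Both calls were near the threshold. The first was lost without crush F (-1.58, adjusted p = 0.353), PSNL F (-3.08, adjusted p = 0.181) or PSNL M (-3.54, adjusted p = 0.210), with a library term (-1.70, adjusted p = 0.825) and in core macrophages alone (-3.45, adjusted p = 0.0971), and the second in 9 of 15 alternatives. Against sham, the PSNL value was -2.73 ± 1.09 (adjusted p = 0.172) and the crush value 0.53 ± 0.97 (adjusted p = 0.907). The eosinophil markers, where Ear2 is also known, summed to 56.7 to 86.1 CPM in crush, 5.56 to 23.2 CPM in PSNL and 0 to 5.26 CPM in sham at 1 week, with Epx, which encodes eosinophil peroxidase, at 0 in every group. Alox15, which is also a target of IL-4, was 28.1 to 38.5 CPM of the crush sum. The cells gated by these markers held 0% of the Ear2 UMIs in crush.

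Chil3 was highest in PSNL at 1 week without passing the test there. It stood at 91.4 and 45.7 CPM in PSNL F and M, 12.8 and 30.8 CPM in crush F and M, and 0 and 15.8 CPM in sham F and M. The PSNL samples did not overlap the others, at 3.14 times the mean of crush. With edgeR the log2 difference was 2.65 ± 1.41 against sham (adjusted p = 0.307) and 1.59 ± 0.94 against crush (adjusted p = 0.299). At 15 weeks it was 3.72, 0, 0.214 and 0.311 CPM in PSNL F1, F2, M1 and M2 and 12.3, 0 and 1.25 CPM in crush F1, F2 and M1. Those higher values came from very few cells, since 51 of the 57 UMIs in crush F1 were in 1 cell and all 10 UMIs of PSNL F1 were in 1 cell. PSNL fell by 6.28 ± 1.06 between the times (77.6-fold, adjusted p = 0.000292), and the difference was -8.42 without PSNL F1 and -8.67 in core macrophages alone. Crush had a difference of -2.36 ± 0.96 (adjusted p = 0.0649), which passed without crush F1 (-4.45, adjusted p = 0.00198).

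Il4ra, the receptor chain itself, varied the least among the members, by the ratio of its highest to its lowest sample. At 1 week it stood at 52.5 and 84.1 CPM in sham F and M, 171 and 118 CPM in PSNL F and M, and 73.0 and 127 CPM in crush F and M, with neighbouring groups overlapping. At 15 weeks all 7 samples lay between 34.6 and 45.1 CPM, below every sample of 1 week. The difference was 1.00 ± 0.30 between PSNL and sham (adjusted p = 0.0726 with edgeR), 0.48 ± 0.30 between crush and sham (adjusted p = 0.592) and 0.52 ± 0.25 between PSNL and crush (adjusted p = 0.205). The first passed in core macrophages alone (1.05, adjusted p = 0.0296). Between 15 weeks and 1 week Il4ra fell by 1.78 ± 0.21 in PSNL (3.43-fold, adjusted p = 2.26e-05) and by 1.35 ± 0.23 in crush (2.55-fold, adjusted p = 0.000631). It was the only member called in both injuries, in comparisons where a large share of all genes passed and where time and batch cannot be told apart.

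Pdcd1lg2 was close to the limit of detection. It stood at 6.63 and 9.67 CPM in PSNL F and M, 4.38 and 5.26 CPM in sham F and M and 5.42 and 0.916 CPM in crush F and M at 1 week, and at no more than 2.60 CPM in any sample at 15 weeks. PSNL was the highest group by 1.69 times the next mean. No difference passed at 1 week (0.73 ± 1.19 against sham, adjusted p = 0.799; 1.50 ± 0.89 against crush, adjusted p = 0.302). It fell by 3.83 ± 0.84 between the times in PSNL with edgeR (14.2-fold, adjusted p = 0.00188), and crush had -1.52 (adjusted p = 0.210).

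**Figure D2:**
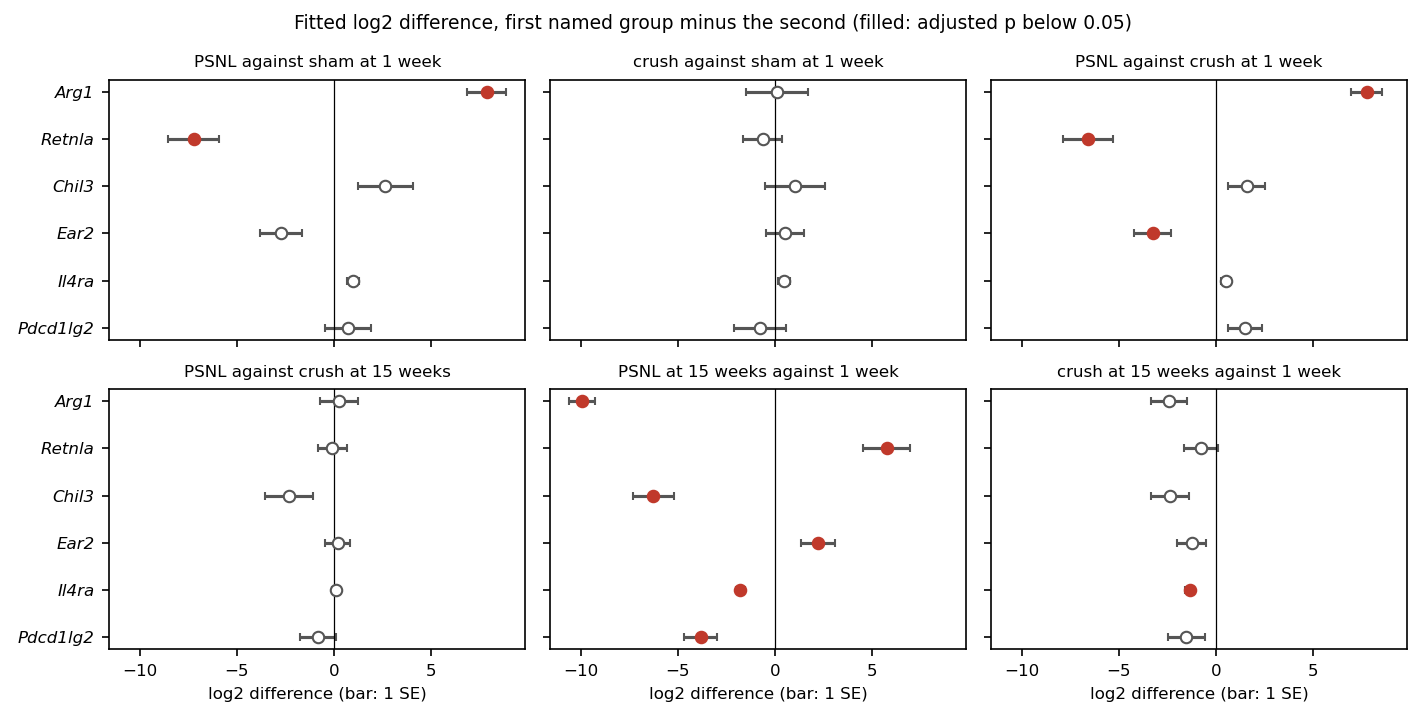
Fitted log2 difference of each member in each comparison, with its standard error as the bar; filled points have an adjusted p under 0.05 and open points do not. Arg1 and Retnla lie on opposite sides at 7.78 and -6.61 between PSNL and crush at 1 week. Between PSNL and crush at 15 weeks, Chil3 lies at -2.33 ± 1.25 and Pdcd1lg2 at -0.81 ± 0.93, with the other members nearer to 0, and none passed.

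Ordered by group means, Arg1 ran from PSNL at 1 week, 141 times the next group, to sham, crush at 1 week, PSNL at 15 weeks and crush at 15 weeks, and each later neighbour overlapped the one before it. Retnla ran from sham through crush at 1 week, crush at 15 weeks and PSNL at 15 weeks, all overlapping, to PSNL at 1 week, 56.3 times lower than its neighbour. Ear2 ran from crush at 1 week through sham, PSNL at 15 weeks and crush at 15 weeks to PSNL at 1 week, 4.20 times lower. Chil3 and Pdcd1lg2 shared a place of PSNL at 1 week on top and overlapping groups beneath, and for Il4ra the only break lay between 1 week and 15 weeks (1.63 times).

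Females had more Retnla than males in most groups. All female samples lay above all male samples in 4 of 5 groups, with female to male ratios of 3.65 in sham, 4.18 in crush at 1 week, 3.07 in PSNL at 15 weeks and 9.06 in crush at 15 weeks, whereas in PSNL at 1 week the ratio was 0.386. With sex as a term, chosen after seeing the data, the female minus male log2 difference was 1.71 ± 0.42 for Retnla (adjusted p = 0.319 with edgeR) and 1.21 ± 0.43 for Ear2 (adjusted p = 0.449). None of the 6 members passed, and 0.105% of all genes did. Each sham sample is of 1 sex and 1 library, so these cannot be told apart in sham.

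The same genes were then counted as shares of cells with a UMI. To compare samples of unequal depth, each cell was thinned to 2000 UMIs, and intervals are exact binomial ones at 95% that cover counting error only. Arg1 was found in 32.7% (28.1 to 37.6%) of PSNL F cells and 40.2% (36.6 to 43.9%) of PSNL M cells. In sham F, from the same library, the share was 2.13% (1 of 47 cells, 0.054 to 11.3%). Whether that 1 cell expressed Arg1 or held background RNA of the library was not tested. Arg1 was found in 0% of sham M cells, in 0.351 and 1.00% of crush F and M cells and in no more than 0.396% of cells at 15 weeks. Without thinning the PSNL shares were 32.3 and 43.0%, and the sham F share was 6.25%. Arg1-positive PSNL cells, also without thinning, held a mean of 11.4 UMIs in F and 17.0 in M, and up to 97 and 175 in a single cell.

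Retnla had fewer but stronger cells. It was found in 31.9 and 18.4% of sham F and M cells, 18.9 and 6.22% of crush F and M cells and 0.761 and 0.967% of PSNL F and M cells at 1 week. At 15 weeks the shares were 11.9, 9.48, 5.54 and 6.29% in PSNL F1, F2, M1 and M2 and 21.1, 13.4 and 3.37% in crush F1, F2 and M1. UMIs per positive cell are given here without thinning, over all cells with a UMI, whereas the shares are after thinning. Outside PSNL at 1 week, positive cells held 29.3 to 125 UMIs on average, and 1 cell of PSNL F1 at 15 weeks held 1396. In PSNL at 1 week, positive cells held 2.36 (F) and 6.95 (M), so the share of cells and the UMIs per positive cell were both low there. Ear2 was found in 10.2 and 3.21% of crush, 2.13 and 6.90% of sham and 1.02 and 0.83% of PSNL cells at 1 week (F and M). Il4ra was found in 11.2 to 23.6% of cells in every 1 week sample and in 7.66 to 12.3% at 15 weeks. Without thinning it had 1.09 to 1.77 UMIs per positive cell.

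Cells were grouped by gates, each a minimum number of detected markers of a list, which overlap and reach deep cells more easily. In PSNL at 1 week Arg1 was most often found in the gate of Spp1 macrophage markers (at least 4 of Spp1, Gpnmb, Fabp5, Lgals3, Lpl and Trem2), in 60.6% of cells (277 of 457; 56.5% in F and 62.6% in M), and in 53.8% of core macrophages (270 of 502). It was found in 38.1% of resident macrophages (16 of 42), 26.1% of monocytes (74 of 284), 17.4% of neutrophils (26 of 149) and 7.41% of dendritic cells (10 of 135) as gated, all at 2000 UMIs a cell. Median depths before thinning were 6843 UMIs in the Spp1 gate, 2008 in the neutrophil gate and 6219 in the dendritic gate. The Spp1 gate held 77.0% of all Arg1 UMIs in PSNL and the neutrophil gate 6.01%. Cells with Arg1 were in the Spp1 gate in 66.0% and cells without it in 25.8%. In crush at 1 week the same gate had Arg1 in 3.76% (5 of 133).

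The Spp1 gate was itself larger in PSNL, with 28.8 and 37.8% of PSNL F and M cells, 17.5 and 12.9% of crush F and M cells and 6.2 and 8.5% of sham F and M cells, and the part of this in the summed Arg1 level was not tested. Restricted to core macrophages, a choice made after seeing the data, the Arg1 difference was 7.97 against sham (adjusted p = 0.0014) and 7.07 against crush (adjusted p = 0.000417 with edgeR). The same restriction gave -7.57 (adjusted p = 0.017) against sham and -7.10 (adjusted p = 0.0155) against crush for Retnla with edgeR. Over all samples the core macrophage gate held 2152 of the 2325 Spp1 gate cells and 984 of the 996 resident gate cells. Their mix within it was not held fixed, and its part in these values was not tested.

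**Figure D3:**
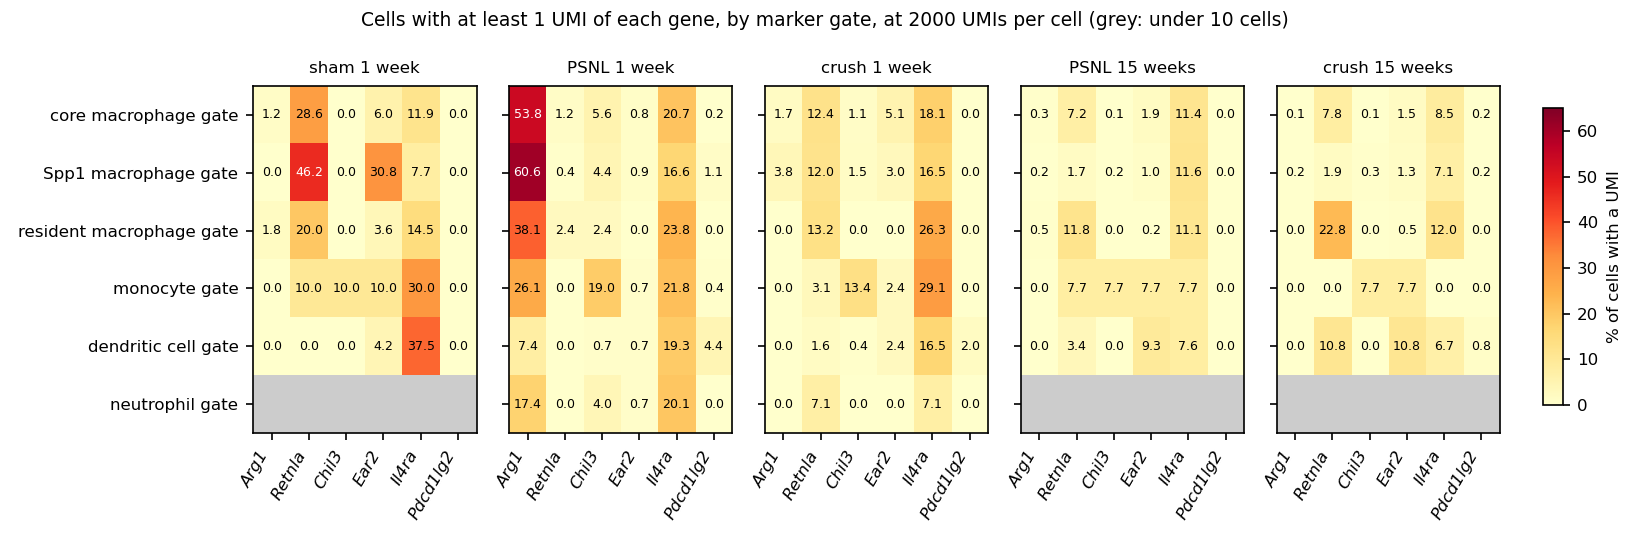
Share of cells (percent, at 2000 UMIs per cell) with each member, by group and by marker gate; grey fields hold under 10 cells. Arg1 reaches 60.6% in the Spp1 gate of PSNL at 1 week, Chil3 reaches 19.0% in the monocyte gate, and Il4ra lies between 16.6 and 23.8% in the 6 gates of PSNL at 1 week with enough cells.

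Most cells with Chil3 carried monocyte markers, in part together with Arg1 or macrophage markers. The monocyte gate (at least 4 of 8 markers, such as Ly6c2, Ccr2 and Plac8) had Chil3 in 19.0% of cells in PSNL and 13.4% in crush at 1 week and held 72.5 and 89.0% of its UMIs. Of the cells with Chil3, 67.5% in PSNL and 77.3% in crush were in this gate, against 22.2 and 14.5% of cells without it. Within this gate the share was 27.2 and 14.4% in PSNL F and M and 8.33 and 14.6% in crush F and M. Of the 80 Chil3 cells in PSNL, 35% were in the core macrophage gate and 25% in the Spp1 gate, and the gates overlap. Monocyte markers summed to 2098 to 2154 CPM in PSNL, 980 to 2402 CPM in crush and 569 to 893 CPM in sham, and their part in the Chil3 level was not tested. Pdcd1lg2 was found in few cells, of which 37.5% (6 of 16) in PSNL and 100% (5 of 5) in crush were in the dendritic gate, against 11.7 and 31.2% of cells without it.

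Shares of cells with a Retnla UMI differed between the gates. In core macrophages it was found in 28.6% of sham cells, 12.4% of crush cells at 1 week (44 of 354), 7.24% of PSNL cells at 15 weeks and 7.76% of crush cells at 15 weeks. At 15 weeks the resident gate, defined by genes such as Cd163, Lyve1 and Folr2, had Retnla in 15.6, 8.65, 11.97 and 11.1% of cells in PSNL F1, F2, M1 and M2 and in 32.9, 21.8 and 14.2% in crush F1, F2 and M1. The Spp1 gate had it in 0, 5.08, 0.735 and 1.94% of cells in those PSNL samples and in 6.45, 2.27 and 1.16% in those crush samples. The resident gate was the higher one in 7 of 7 samples, although the Spp1 gate cells were deeper, with medians of 9496 (PSNL) and 10318 UMIs (crush) against 6970 and 6591. Free RNA was not measured apart, and many of these cells hold 1 or 2 Retnla UMIs, so a cell with a UMI need not express the gene. Of Ear2-positive cells, 1.9% were in the resident gate in PSNL at 15 weeks, against 26.9% of cells without it, and 3.4 against 18.0% in crush. In crush at 1 week, core macrophages held 46.7% of the Ear2 UMIs and 72.6% of the Retnla UMIs. This gate held 1030866 of the 2225798 UMIs of all genes in crush F and 1699802 of 3548094 in crush M. The Ear2 share was thus close to the gate's share of all RNA. The eosinophil gate, with 22 cells, held 0.148% of the Retnla UMIs.

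Most thinned cells held none or 1 of the members. Low shares and thinning limit how often members can be found together, so these counts alone do not show avoidance, and expected numbers follow by pair. In PSNL at 1 week, of 1118 thinned cells, 513 held none of the 6, 478 held 1, 114 held 2 and 13 held 3, and no cell in any group held 4 or more. Arg1 alone was the most common state there (304 cells), followed by Il4ra alone (119), Arg1 with Il4ra (68) and Chil3 alone (35). In crush at 1 week the leading states were Il4ra alone (116 cells), Retnla alone (41), Retnla with Ear2 (29) and Chil3 alone (17).

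The pair found together was Retnla and Ear2. The number of cells with both was 35 in crush at 1 week, where 6.49 were expected from the shares within each sample (85 cells with Retnla, 45 with Ear2, 783 in all). It was 33 in PSNL at 15 weeks, where 4.58 were expected, 26 in crush at 15 weeks, where 7.54 were expected, and 3 in sham, where 1.42 were expected. In PSNL at 1 week no cell had both and 0.0885 were expected. Association was measured as the log2 odds ratio within a sample with at least 10 cells of each gene. It was 4.08 and 7.27 in crush F and M at 1 week, 4.92 in PSNL F2, 2.63 in crush F1 and 3.21 in crush M1 at 15 weeks. The mean was 4.42 (SD 1.81), positive in 5 of 5 samples, which is fewer than the 6 samples set as the minimum for a test. It was 4.77 in core macrophages alone, over 4 samples.

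Without thinning, 12 samples had enough cells and all 12 were positive, with a mean of 3.18 (SD 1.38). A two-sided exact permutation test that flips signs over samples gave p = 0.000488, the smallest that 12 samples can give, and an adjusted p = 0.00146 over the 3 pairs tested. Cells with both genes were deeper in this setting, with a median of 11097 UMIs against 6026 in cells with Retnla alone in crush at 1 week, and the part of depth in this value was not tested.

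**Figure D4:**
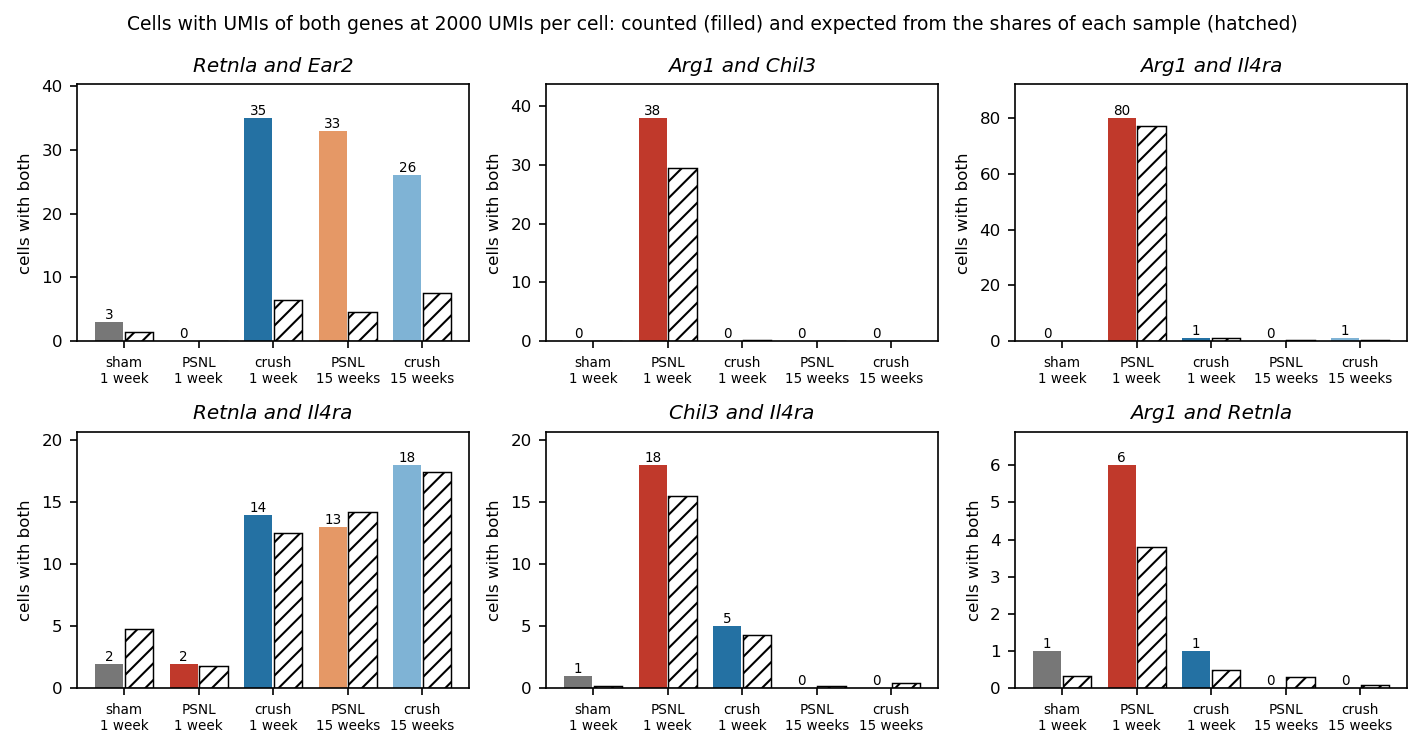
Number of cells with both members of a pair at 2000 UMIs per cell, by group, with counted numbers as filled bars and those expected from the shares within each sample as hatched bars. Retnla with Ear2 stands above the expected number in crush at 1 week (35 against 6.49), whereas Arg1 with Il4ra in PSNL at 1 week does not (80 against 77.1).

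The other pairs had smaller departures from the expected number. Arg1 and Il4ra occurred together in 80 PSNL cells at 1 week, where 77.1 were expected (mean log2 odds ratio 0.10 over 2 samples). Arg1 and Chil3 occurred together in 38 cells, where 29.5 were expected, with log2 odds ratios of 0.62 in PSNL F and 0.75 in PSNL M, but of -0.25 on average in core macrophages and 0.06 when cells were thinned to 1000 UMIs. Arg1 and Pdcd1lg2 occurred together in 3 cells, where 6.13 were expected, with a log2 odds ratio of -2.40 in the only sample with enough cells, PSNL M. Arg1 and Retnla could not be compared as a pair, since the first was high where the second was nearly absent. In PSNL at 1 week 6 of the 10 Retnla cells also held Arg1, where 3.80 were expected. Retnla and Chil3 shared 1 cell in crush at 1 week, where 1.75 were expected, and Retnla and Pdcd1lg2 shared none, where 0.820 were expected. Ear2 and Il4ra shared 6 cells in crush at 1 week, where 6.60 were expected, and 1 cell in crush at 15 weeks, where 4.97 were expected. Chil3 and Il4ra shared 18 cells in PSNL at 1 week, where 15.5 were expected. Retnla and Il4ra, the only pair with enough samples for a test after thinning, had a mean log2 odds ratio of -0.01 (SD 0.66) over 10 samples, positive in 4 of 10 (two-sided exact permutation test, p = 0.953).

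Outside sham and PSNL at 1 week, most Retnla RNA was in the cells that also held Ear2. Over all UMIs, 58 cells with both genes held 74.3% of the Retnla UMIs of crush at 1 week, with a median of 78.5 UMIs each, whereas 62 cells with Retnla alone had a median of 1.5. The contrast was larger in PSNL at 15 weeks, where 58 cells with both held 84.4% at a median of 174.5, against a median of 1 in 159 cells with Retnla alone. In crush at 15 weeks 55 cells held 70.5% at a median of 128, against 2 in 238 cells. In sham the 12 cells with both held 46.0% at a median of 31.5, and 25 cells with Retnla alone held 54.0% at a median of 11. In PSNL at 1 week the only cell with both held 7.59% and 29 cells with Retnla alone held 92.4%. Cells with both were the deeper ones in sham, crush at both times and PSNL at 15 weeks, for example 14948 against 7180 UMIs in PSNL at 15 weeks. At 15 weeks the resident gate held 45.9 and 45.8% of the cells with Retnla alone in PSNL and crush, and 5.17 and 9.09% of the cells with both.

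**Figure D5:**
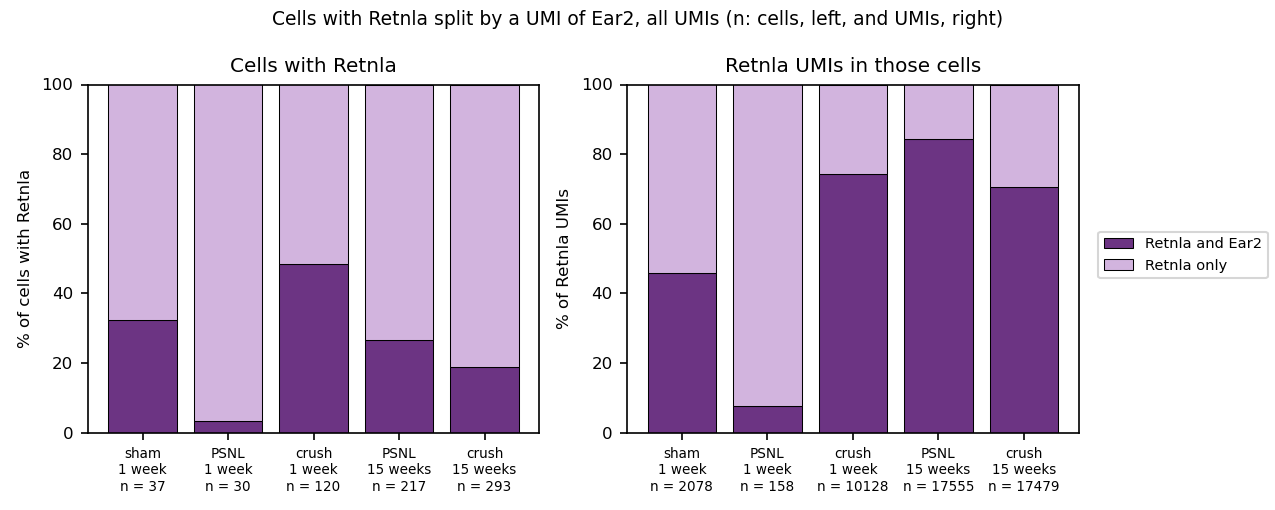
Retnla UMIs of each group, divided into those of cells that also held an Ear2 UMI and those of cells that did not, in percent. Cells with both genes hold 74.3% in crush at 1 week, 84.4% in PSNL at 15 weeks, 70.5% in crush at 15 weeks and 46.0% in sham, and in PSNL at 1 week only 1 cell had both.

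The genes most like each member were taken by the mean correlation across cells within samples, with cells that share library and depth, as a description. For Arg1 (2 samples, 6942 genes) these were Ctsl (0.65), Cd36 (0.63), Fn1 (0.60), Spp1 (0.57) and Pdpn (0.54). For Retnla (10 samples, 8931 genes) they were Fn1 (0.55), Fgfr1 (0.47), Ear2 (0.47), Ccl9 (0.45) and Gda (0.45), and for Ear2 (7 samples, 8780 genes) Fn1 (0.47), Retnla (0.43), Cd226 (0.41), Hopx (0.37) and Unc119 (0.35). Retnla and Ear2 were thus the only members in each other's list. Chil3 (3 samples, 7233 genes) was nearest to Ly6c2 (0.34), Plac8 (0.32), Vcan (0.28), Lyz2 (0.24) and Plcb1 (0.23). Pdcd1lg2 (1 sample, 7107 genes) was nearest to Il4i1 (0.23) and Ccr7 (0.22), and then to Tbc1d4, Dusp5 and Aph1c. For Il4ra (12 samples, 8724 genes) the highest values were 0.096 for Slfn5 and 0.081 for the fifth gene, Bmp2k, with Lgals3bp, Ms4a6c and Csf1r between them, too weak to be read as a likeness.

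The ligands of the pathway were scarcely found in these sorted myeloid cells, with Il4 at no more than 5.58 CPM in any sample and Il13 at 0.947 CPM in PSNL F alone. Cells outside the CD45+/CD11b+ sort were not measured, so the values do not give the level of the ligands in the nerve. Of 9 genes of IL-4 receptor signalling, among them Stat6 (59.5 to 94.6 CPM) and Il13ra1 (40.2 to 81.9 CPM), 0 passed in PSNL against sham, in crush against sham or in PSNL against crush at either time. Of all genes, 5.21% passed in PSNL against sham, 0.165% in crush against sham, and 12.4 and 0% in PSNL against crush at 1 and 15 weeks. The median log2 difference of the list between PSNL and sham was 0.39, against 0.10 over all genes. Between 15 weeks and 1 week, 4 of 9 (44.4%) fell and 0 rose in each injury, where 56.3% (PSNL) and 42.5% (crush) of all genes were called, so the list does not stand above that background. In PSNL these were Il2rg, the common gamma chain (-1.64), the kinase gene Jak3 (-1.53) and the feedback inhibitors Socs1 (-2.53) and Cish (-3.58), and in crush they included Jak3 (-2.15) and Il2rg (-1.52).

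Other genes known as targets of IL-4 were called in both directions. Of 18 tested, 1 was higher and 4 were lower in PSNL than in sham, where 5.21% of all genes were called (median 0.32, all genes 0.10). The lower ones included the lectin genes Mgl2 (-6.17 ± 0.78, adjusted p = 0.00182), Mrc1 (-2.19, adjusted p = 0.00813) and Clec10a (-1.95, adjusted p = 0.00822), which resident macrophages and dendritic cells also express, and the higher one was Tgm2, a transglutaminase (3.46, adjusted p = 0.0137 with edgeR). Resident markers, Mrc1 among them, summed to 2433 to 4302 CPM in sham, 1642 to 2148 CPM in PSNL and 352 to 583 CPM in crush. The sum did not follow the resident gate, which held 45.3 and 36.8% of sham F and M cells at 1 week. It held 3.57 and 3.09% of PSNL F and M cells and 5.72 and 3.46% of crush F and M cells. In PSNL Lyve1 had 0 UMIs, and mean Mrc1 was 234 CPM, against 242 CPM in crush. The part of resident cells in the levels of these lectin genes was not tested. Between PSNL and crush at 1 week, where 12.4% of all genes were called, 3 of 18 were higher and 4 lower (median 0.16, all genes -0.02). With edgeR the higher ones included Ccl24 (2.80, adjusted p = 0.00802) and Tgm2 (2.73, adjusted p = 0.00612), and the lower ones Batf3 (-1.79, adjusted p = 0.0033) and Clec10a (-1.63, adjusted p = 0.00884). At 15 weeks 0 of 18 differed between the injuries, where 0% of all genes were called. From 1 to 15 weeks in PSNL, where 56.3% of all genes were called, 6 rose, with Mgl2 at 5.16 and the lipid receptor gene Pparg at 2.40, and 10 fell, with Tgm2 at -4.93. In crush, where 42.5% were called, 2 rose, Pparg at 3.61 and Mrc1 at 2.01, and 7 fell. Those that fell included Alox15 at -10.0 (adjusted p = 7.09e-05 with edgeR), a value set by 0 UMIs in crush at 15 weeks, and Ccl22 at -5.42. At 1 week Alox15 stood at 28.1 to 38.5 CPM in crush, 3.14 to 6.16 CPM in PSNL and 0 CPM in sham. Alox15 is also 1 of the eosinophil markers. Against sham, crush had 0 of 18 called, where 0.165% of all genes were called.

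Of the genes that make or use arginine and its products, those called at 1 week lay on the same side as Arg1. Of 9 tested, 3 were higher in PSNL than in sham and 0 lower (median 1.00), where 5.21% of all genes were called in either direction. With edgeR these were Odc1, the rate-limiting enzyme of polyamine synthesis (2.00 ± 0.29, adjusted p = 0.0034), Sat1, which acetylates polyamines (0.89, adjusted p = 0.0147), and Ass1, which serves arginine synthesis (4.40, adjusted p = 0.0315). The Ass1 value rests on 4 UMIs in sham. Odc1 stood at 76.7 and 78.1 CPM in PSNL F and M, 8.75 and 24.5 CPM in sham F and M and 21.7 and 19.9 CPM in crush F and M, with both PSNL samples above all others. Between PSNL and crush, where 12.4% of all genes were called, 2 of 9 were higher and 0 lower. With edgeR these were Odc1 (1.90, adjusted p = 0.000448) and the mitochondrial arginase gene Arg2 (3.11, adjusted p = 0.0138). Arg2 is also known in neutrophils, whose markers were higher in PSNL, and the part of these in its level was not tested. In PSNL 7 of 9 (77.8%) fell by 15 weeks, where 56.3% of all genes were called in either direction, among them Odc1 (-2.63) and Arg2 (-4.83). Nos2, the other user of arginine, was at no more than 1.89 CPM in any sample.

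Relatives and partners of the members were mostly near or at 0. Chil4, Ear6, Ear10, Ear14 and Chia1 had no UMI in any sample, Ear1 reached 2.46 CPM and Pdcd1, which encodes the receptor of PD-L2, 2.18 CPM. Cd274, which encodes PD-L1, the other ligand of that receptor, stood at 74.8 and 88.8 CPM in PSNL F and M, 18.7 and 14.4 CPM in crush F and M and 13.1 and 59.6 CPM in sham F and M. It was the only 1 of 5 tested that was higher in PSNL than in crush (2.32, adjusted p = 0.00268 with edgeR), where 12.4% of all genes were called. Between 1 and 15 weeks in PSNL, where 56.3% of all genes were called, 4 of 5 fell, with Cd274 at -2.39 and Retnlg, a relative of Retnla found in neutrophils, at -6.85. In crush, where 42.5% of all genes were called, 1 of 5 fell, which was Retnlg at -7.23. Retnlg was not near 0 at 1 week, at 227 to 631 CPM in crush, 110 to 405 CPM in PSNL and 8.75 to 280 CPM in sham.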

How the data were processed

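Single-cell RNA of 13 hashtag samples in 4 libraries was analysed. The deposited matrices hold unnormalised UMI counts for every gene in every barcode that the authors' pipeline called a cell, and hashtag counts. GRCm38, Seurat 5.1.0 and Cell Ranger 6.0.0 are listed in the submitters' processing notes. Matrix headers also give 6.0.0 at 1 week, but 7.0.0 for the 15 week libraries. Whether intron reads were counted is not given in the sources used here, and a change of version can move counts between the times. The libraries held 1920 (crush with sham), 2471 (PSNL with sham), 2675 (crush, 15 weeks) and 2067 barcodes (PSNL, 15 weeks), and 1 to 3 barcodes were shared between pairs of libraries. Joining the lists of 31053 and 32285 genes kept at least 99.4% of UMIs. An unlabelled hashtag with 110 UMIs was not used.

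Barcodes were assigned at the valley of each hashtag's counts, and cells were kept at 500 or more genes and less than 10% mitochondrial UMIs. Scrublet called 1 to 6 barcodes per library, so it did not work as a filter; leaving out the 6% with the highest scores was an alternative. Counts were summed per sample, filtered with filterByExpr, scaled by TMM (CPM use these totals) and fitted in edgeR 4.0.16 (R 4.3.3), whose quasi-likelihood test was used (8 residual and a median of 4.54 prior degrees of freedom). On simulated data for PSNL against crush at 1 week it called 46 of 100 genes set to a 2-fold change, 97 of 100 set to a 4-fold change and 4 of the unchanged genes among 11481. Pairs of samples within a group were further apart than sampling noise, with a chi-squared value of 4.14 to 41.7 for each degree of freedom. Cells were thinned to 2000 UMIs, which left out 600 of 6547, in Python 3.11.15 with numpy 2.4.6 and scipy 1.17.1. An amount of 0.5 was added to each field of the odds ratios. DESeq2 1.42.0 and HTODemux of Seurat 5.3.0 at a quantile of 0.99 were among the alternatives.

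Named genes were the 6 members, up to 4 called genes of each pathway list and comparison by adjusted p, and per member the 5 genes with the highest mean correlation across cells of log-scaled counts per 10000, over samples with at least 20 positive cells, among genes found in at least 5% of cells; genes named to give a list's level without a call were chosen after their values were seen. The members, lists and tests were chosen with earlier results of these data known. Sham nerves at 15 weeks and human cells were not analysed here.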

Additional observations from a re-analysis of the deposited data

Results flagged for a closer look

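Chil3 in PSNL F1 at 15 weeks, at 3.72 CPM, lay further from the other 3 samples of its group than the 95% limit of Dixon's test for 4 samples allows. All 10 of its UMIs were in 1 cell. Such a limit is passed by chance in about 5% of groups.

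The PSNL minus crush difference changed between the times for 2 members, by the test of that change in edgeR. For Arg1 the difference was larger at 1 week than at 15 weeks by 7.51 on the log2 scale (adjusted p = 0.00624), and for Retnla it moved by -6.53 (adjusted p = 0.0182). At each time both injuries shared batch and Cell Ranger version, but each injury was a library of its own, so injury and library cannot be told apart in these values.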

How the results depend on the processing

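Only the 22 differences of members that were called in the main fit or in at least 1 alternative were counted here. Crush against sham, for example, was left out for every member. Its direction held in 9 of 14 alternatives for Arg1, 11 of 14 for Retnla, 12 of 14 for Ear2 and 14 of 14 for Chil3 and Il4ra. Of 336 alternative values for the 22 differences, 287 kept their direction and their side of the threshold, 25 lost the call, 21 gained it and 3 reversed. The reversed ones were Arg1 in PSNL against crush at 1 week with a library term (-1.29), and crush at 15 weeks against 1 week with a sample left out, from -2.18 to 0.45 for Ear2 and from -2.87 to 0.12 for Pdcd1lg2. In PSNL against sham, 2 members were called, 4 without a filter on low counts and 1 to 2 with a sample left out. In PSNL against crush at 1 week, 3 were called, 0 with the library term and 1 to 3 with a sample left out. In crush at 15 weeks against 1 week, 1 was called, 2 with a looser cell filter, without neutrophils or in core macrophages alone, 3 without a filter on low counts or with sex as a term, and 1 to 4 with a sample left out. For the change of the PSNL minus crush difference, 2 were called, 4 without a filter and 1 to 3 with a sample left out. Of pairs in single cells, 0 passed, and 1 (Retnla with Ear2) passed without thinning. Over all genes, the called numbers ran from 150 to 977 around 598 in PSNL against sham, from 0 to 152 around 19 in crush against sham, from 71 to 1691 around 1423 in PSNL against crush at 1 week, from 3002 to 5143 around 4877 in crush between the times and from 198 to 1271 around 893 for the change of the difference. The lowest counts came with a sample left out, apart from 71, which came with the library term. PSNL against crush at 15 weeks had 0 called genes (548 at an unadjusted p under 0.05), 8 with DESeq2 and 9 without a filter. The shared replicate numbers at 15 weeks correlated at 0.082 to 0.163 and did not mark pairs; with a replicate block 3 genes and 0 members were called. The core macrophage and sex alternatives were chosen after seeing the data. With 64 and 106 sham cells, a level under 3 UMIs could not be told from 0.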
